A study of Homo sapiens with 6 samples.

Results

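Pola1 and Primpol, 2 genes whose products start new DNA strands, were followed through a dual-guide CRISPR knockout screen of 459 genes of the DNA repair network. Each construct carried 2 guide RNAs, so that a cell could lose 2 genes, and the read count of a guide pair measures how many cells held it. The members were all guide pairs in which either guide name carried the symbol Pola1 or Primpol. They made up 6510 of the 863546 guide pairs read in any library, 2799 that held a Pola1 guide and 3717 that held a Primpol guide. From Pola1, 3 guides were analysed, and from Primpol 4, of 1826 gene-targeting guides in all. Both genes were selected on how the reads of their guides had moved in these same libraries, so their levels and changes are given as a description, with no test. In RefSeq's annotation of GRCh38.p14, POLA1 lies on chromosome X from 24693918 to 24996986 and PRIMPOL on chromosome 4 from 184649738 to 184694952. The sequences and cut sites of the guides were not used here, and editing at the targets was not analysed here.

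DNA polymerases cannot begin a strand without a primer. POLA1 is the catalytic subunit of DNA polymerase alpha, which works in a complex with primase: the primase lays down a short RNA, and POLA1 extends it with DNA before the main replicative polymerases take over, on the leading strand and again for every Okazaki fragment of the lagging strand. PRIMPOL is a separate enzyme that is both primase and polymerase, and it restarts synthesis beyond a lesion or a stalled fork, which leaves a gap for later repair. Loss of POLA1 stops the growth of most human cell lines, whereas many vertebrate cells grow without PRIMPOL.

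The cells were a single clone of eHAP, human cells that descend from HAP1, a near-haploid leukemia line. All 3 groups share its p53 null genotype, the integrated Cas9 that doxycycline switches on, and the guide library, delivered by transduction and selected with puromycin. Day 0 cells were the starting point, day 14 cells had gone through 12 population doublings of standard growth, and day 15 irradiated cells had gone through 10 population doublings with 0.6 Gy of X-rays given after each split. Doxycycline was present for the first part of the culture only. Each group held 2 replicates, and nothing in the labels says that they came from separate cultures, so the spread between them may be technical.

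The libraries held between 61185707 and 86587125 reads. In 4 libraries between 1.93% and 7.62% of guide pairs had no reads, but in day 14 replicate 1 the share was 54.1% and in irradiated replicate 2 it was 49.5%; these 2 are called the incomplete libraries. The Pola1 and Primpol pairs followed the same split, with 47.5% and 42.2% at 0 in the incomplete libraries and between 0.845% and 4.30% in the others. A construct has 2 positions: position 1 held the guides numbered 1 and 2 of each gene, and position 2 those numbered 3 and 4. Of the 61 non-targeting guides, 25 were read at position 1 and 36 at position 2. At position 2, 264 of 927 guides had a day 0 level that was lower by more than 0.45 (log2) in replicate 1 than in the other replicate. None of the Pola1 or Primpol guides was among them.

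The first question was how abundant each guide was, summed over all its partners. Levels are CPM (counts scaled to a fixed total per position) after edgeR's trimmed mean of M-values, or TMM, scaling. Of the 7 guides, Pola1_sg3 was at 3590 and 3055 at day 0, 2550 and 2599 at day 14, and 2214 and 2305 after irradiation (replicates 1 and 2 in that order). Both day 14 libraries lay below both day 0 libraries, and both irradiated libraries lay below all 4 others. Primpol_sg3 was at 1433 and 1524 at day 0, 928 and 1126 at day 14, and 1072 and 1021 after irradiation. Its 4 later libraries all lay below both day 0 libraries, and its day 14 and irradiated values overlapped.

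**Figure D1:**
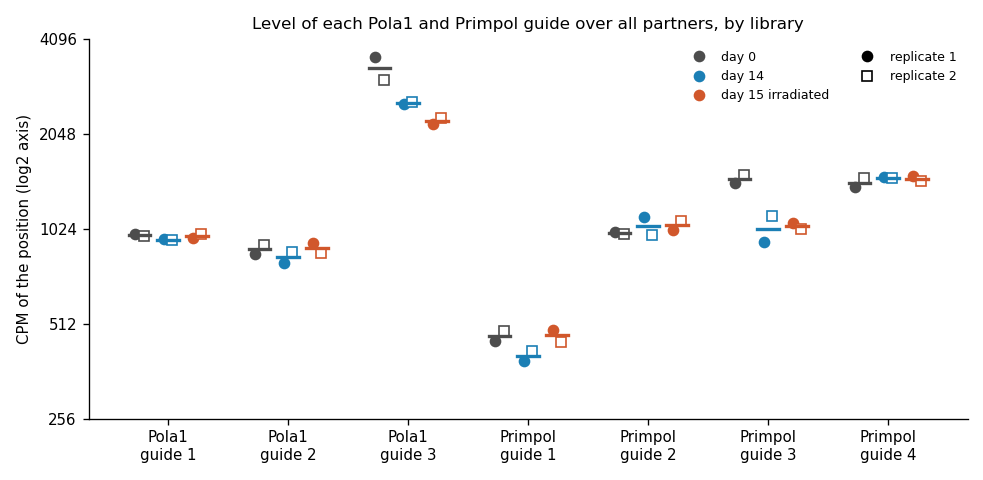
Level of each Pola1 and Primpol guide in CPM of its position (log2 axis), summed over all partners. Filled circles are replicate 1, open squares replicate 2, and short lines the mean of both; day 0 is grey, day 14 blue and irradiated day 15 orange. Pola1 guide 3 and Primpol guide 3 sit lower in all 4 later libraries than at day 0, while the group means of the other 5 guides lie within 0.21 (log2) of day 0.

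The other guides of the same genes stayed near their starting level. Pola1_sg1 was at 990 and 975 at day 0, 950 and 946 at day 14, and 960 and 986 after irradiation. Pola1_sg2 was at 854 and 912, then 800 and 863, then 922 and 859. For Pola1, then, only the guide at position 2 lay well below day 0, and its 2 guides at position 1 differed from day 0 by less than 0.1 on the log2 scale in both comparisons. Primpol_sg1, the least abundant of the 7, was at 450 and 486 at day 0, 391 and 421 at day 14, and 491 and 450 after irradiation. Primpol_sg2 was at 1004 and 985, then 1120 and 979, then 1016 and 1088. Primpol_sg4 was at 1387 and 1486, then 1502 and 1481, then 1506 and 1456, so the 2 Primpol guides that share position 2 parted after day 0.

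The order of the levels at day 0 was Pola1_sg3, then Primpol_sg3 and Primpol_sg4, then Primpol_sg2 and Pola1_sg1, then Pola1_sg2 and last Primpol_sg1. Primpol_sg3 and Primpol_sg4 overlapped at day 0, as did Primpol_sg2 and Pola1_sg1, and the other neighbours in this order did not. Pola1_sg3 was the 11th most abundant of the 927 guides at position 2, at 3.91 times the median guide, and Primpol_sg1 was at 0.494 times the median at position 1. Pola1_sg3 also differed most between the day 0 libraries, being 0.23 (log2) higher in replicate 1, against at most 0.11 in size for the other 6 guides. Over the 927 guides of position 2, day 0 level and change correlated at r = -0.12 (day 14) and r = -0.13 (irradiated), a description across guides that share the day 0 libraries and are not independent.

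The changes against day 0 followed from these levels. Both comparisons use the same day 0 libraries, so their values stand side by side and are not independent. Pola1_sg3 was at a log2 change of -0.37 at day 14 (SE 0.083, 95% interval -0.58 to -0.16, n = 2 libraries per group), or 77.5% of its day 0 level, and at -0.56 after irradiation (SE 0.083, interval -0.76 to -0.35), or 68.0%. Primpol_sg3 was at -0.53 at day 14 (SE 0.10, interval -0.78 to -0.27), or 69.5%, and at -0.50 after irradiation (SE 0.10, interval -0.76 to -0.24), or 70.8%. Counted from the lowest of 1849 guides, Primpol_sg3 ranked 4th at day 14 and 7th after irradiation, and Pola1_sg3 17th and 5th. Among the 927 guides of position 2, Primpol_sg3 ranked 2nd and 7th and Pola1_sg3 11th and 5th. The lowest guide in both comparisons was Fen1_sg3, against the flap endonuclease that trims the ends of Okazaki fragments, at -0.71 and -0.89.

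The other 5 guides lay between -0.21 (Primpol_sg1) and 0.08 (Primpol_sg2) at day 14, and between -0.01 (Pola1_sg1) and 0.08 (Primpol_sg2) after irradiation. At day 14 the interval of each of them included 0. Primpol_sg1 came nearest to excluding it, at -0.21 (interval -0.43 to 0.02). The distance from the lowest guide of a gene to its next guide was 0.28 for Pola1 and 0.32 for Primpol at day 14, the 21st and 15th widest of 459 genes. After irradiation it was 0.54 and 0.51, the 5th and 7th widest. In each case the lowest guide was at position 2 and the next at position 1, and changes spread more widely at position 2. The 5th and 95th percentiles at position 2 were -0.22 and 0.40 at day 14, and -0.23 and 0.41 after irradiation. At position 1 they were -0.18 and 0.14, then -0.11 and 0.11.

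**Figure D2:**
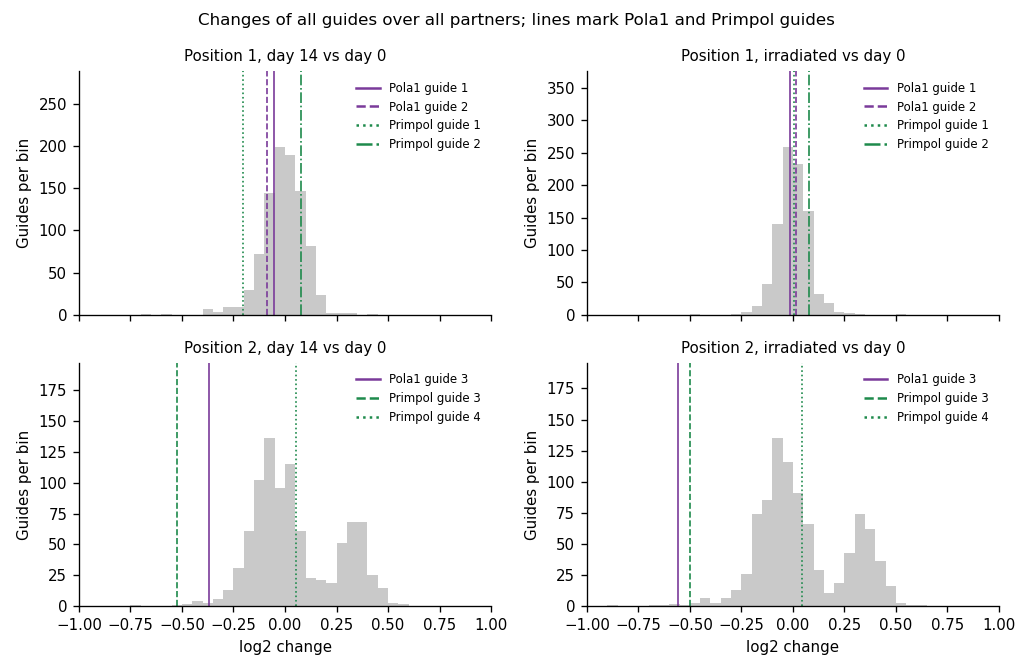
Log2 changes of all guides summed over all partners, as counts of guides per bin of 0.05, by position (rows) and comparison (columns); vertical lines mark the Pola1 and Primpol guides. Pola1 guide 3 and Primpol guide 3 lie in the left tail at position 2, and the other 5 guides lie between -0.21 and 0.08; 2 guides at position 1 with irradiated changes above 1 lie beyond the axis.

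Non-targeting guides at the same position gave the background. At position 2, the 36 of them ran from -0.41 to 0.41 at day 14 and from -0.30 to 0.45 after irradiation. At day 14, 1 of them lay below Pola1_sg3 and none below Primpol_sg3, and after irradiation none lay below either guide. Day 0 replicate 1 is the library in which 264 of 927 guides of position 2 had a low level. Without that library the 36 ran from -0.32 to 0.11 at day 14 and from -0.21 to 0.12 after irradiation. At position 1, the 25 non-targeting guides ran from -0.18 to 0.16 at day 14, and Primpol_sg1 lay below all of them, Pola1_sg2 above 7 and Pola1_sg1 above 10. Primpol_sg1 was the least abundant member guide, with 71.3% of its constructs at 0 reads in day 14 replicate 1. After irradiation all 4 member guides at position 1 lay within the non-targeting range.

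The fit over all 1849 guides, edgeR's quasi-likelihood test with Benjamini-Hochberg adjustment at 0.05, called 0 guides (0%) in each comparison. At an unadjusted p under 0.05 there were 79 guides at day 14, 57 after irradiation and 83 between the irradiated and day 14 cells. DESeq2 called 24 guides (1.3%) at day 14 and 27 (1.46%) after irradiation, and 2 of the 7 member guides, Pola1_sg3 and Primpol_sg3, were among them in both. Between the irradiated and day 14 cells it called 22 guides (1.19%) and no member. At day 14, 4 of the 7 guides (Pola1_sg1, Pola1_sg3, Primpol_sg1 and Primpol_sg3) had both libraries below both day 0 libraries, as had 21.5% of all guides. After irradiation this held for 2 (Pola1_sg3 and Primpol_sg3), against 18.3% of all guides, and Primpol_sg2 had both libraries above, as had 18.2%. Changes under -0.3 were seen for the same 2 of 7 guides at day 14, where 1.57% of all guides were under it, and after irradiation, where 1.46% were. At position 2, which holds both guides, 17 of 927 guides were under it at day 14 and 26 after irradiation. At position 1 these were 12 and 1 of 922. Because both genes were selected on these contrasts, nothing is read from these counts.

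One other summary turned the direction of Pola1_sg3: the median over partners of the log2 level, averaged over both replicates, put it at 0.69 at day 14 and 0.26 after irradiation, with Primpol_sg3 at -0.62 and -0.40. That summary includes the incomplete libraries, in which Pola1_sg3 had 22.5% and 14.9% of its constructs at 0 reads and a median construct of 73.5 and 125 reads, whereas Pola1_sg1, at 50.5% and 47.5%, had a median of 0 and 4 reads. Without day 14 replicate 1, the summed reads put Pola1_sg3 at -0.35 and Primpol_sg3 at -0.39 at day 14. Without irradiated replicate 2 they were at -0.59 and -0.46 against day 0. Without day 0 replicate 1, Pola1_sg3 was at -0.25 at day 14, with 3 of the 36 non-targeting guides below it, and at -0.43 after irradiation, with none below it.

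Irradiated cells were then set against day 14 cells, the comparison that bears on the X-rays. Pola1_sg3 was at -0.19 (SE 0.083, interval -0.40 to 0.02), with both irradiated libraries below both day 14 libraries, as had 15.8% of all guides. All 36 non-targeting guides at position 2, which ran from -0.12 to 0.17, lay above it. Primpol_sg3 was at 0.03 (SE 0.10, interval -0.23 to 0.28), with overlapping libraries, and turned to -0.11 without day 14 replicate 1. Primpol_sg1 was at 0.21 (SE 0.090, interval -0.01 to 0.44), above all 25 non-targeting guides at position 1, which ran from -0.21 to 0.15, and Pola1_sg2 was at 0.10 and Pola1_sg1 at 0.04. Primpol_sg1 was the least abundant of the 7 guides. Its constructs had the most zeros of the 7, at 71.3% in day 14 replicate 1 and 65.5% in irradiated replicate 2. Primpol_sg1 and Pola1_sg1 had both irradiated libraries above both day 14 libraries, as had 15.1% of all guides. The day 14 and irradiated cells also differed in culture time and doublings, which cannot be told apart from the X-rays here.

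Single constructs showed whether a few partners carried these sums. Among the constructs with a mean of at least 20 reads, each was compared in the near-complete libraries, day 14 replicate 2 and irradiated replicate 1, with the mean of both day 0 libraries. Of the 920 constructs with Pola1_sg3, 78.9% were lower at day 14 and 87.3% after irradiation, with median log2 changes of -0.39 (quartiles -0.76 and -0.06) and -0.65 (quartiles -1.01 and -0.26). Of the 891 constructs with Primpol_sg3, 74.3% and 77.8% were lower, with medians of -0.48 (quartiles -0.94 and 0.03) and -0.58 (quartiles -1.22 and -0.08). The lower level was thus spread over most partners of both guides. Among the 927 guides of position 2, Pola1_sg3 had the highest share of lower constructs at day 14 and the second highest after irradiation, and Primpol_sg3 the 4th highest in both. The median guide at position 2 had 50.5% and 53.0% of its constructs lower. These shares were not adjusted for depth, and Pola1_sg3 was at 3.91 times the median day 0 level of position 2. By summed change, Pola1_sg3 was the 11th lowest guide of position 2 at day 14 and the 5th lowest after irradiation. Constructs of a guide share that guide and these libraries, so they are not replicates.

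**Figure D3:**
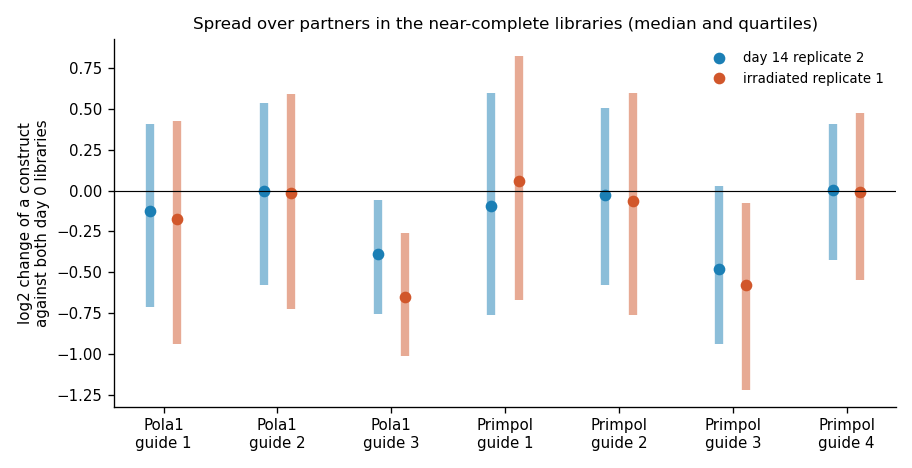
Log2 change of single constructs against the mean of both day 0 libraries, for each Pola1 and Primpol guide over its partners, in day 14 replicate 2 (blue) and irradiated replicate 1 (orange). Points are medians and bars run from the lower to the upper quartile; the bars of Pola1 guide 3 lie wholly below 0, and Primpol guide 3 has medians of -0.48 and -0.58, while the other 5 guides have medians within 0.2 of 0.

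The remaining 5 guides had between 49.3% (Primpol_sg4) and 55.5% (Pola1_sg1) of their constructs lower at day 14, and between 47.9% (Primpol_sg1) and 56.6% (Pola1_sg1) after irradiation. Constructs were also split by the kind of partner. The medians of Pola1_sg3 at day 14 were -0.51 with 25 non-targeting partners, -0.42 with 56 guides of the replication list described below and -0.38 with 837 guides of other genes. After irradiation they were -0.94, -0.63 and -0.65. For Primpol_sg3 the day 14 medians were -0.57 (23 constructs), -0.46 (55 constructs) and -0.48 (811 constructs). After irradiation they were -0.18 with non-targeting partners, where 15 of 23 constructs were lower, -0.56 with the replication list, where 45 of 55 were lower, and -0.58 with other genes, where 631 of 811 were lower. The difference between kinds of partner was not tested.

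Constructs that pair a guide with a non-targeting guide give the knockout of that gene alone, at a far lower depth. For Pola1_sg3, the reads over 25 such constructs were 6763 and 5287 at day 0, 2252 and 3051 at day 14, and 2981 and 2896 after irradiation. Scaled to the reads of constructs with 2 non-targeting guides, all 4 later libraries lay below both day 0 libraries, at log2 changes of -0.64 (SE 0.24, interval -1.19 to -0.08) and -0.90 (SE 0.24, interval -1.45 to -0.34). Without day 0 replicate 1 the day 14 value was -0.41. For Primpol_sg3 the reads were 2695 and 2926, then 1010 and 1608, then 1870 and 2765. Its change was -0.56 at day 14 (SE 0.29, interval -1.21 to 0.10) with both libraries below day 0 (-0.33 without day 14 replicate 1 and -0.83 without replicate 2), and -0.16 after irradiation (SE 0.29, interval -0.81 to 0.50) with overlapping libraries. Leaving out irradiated replicate 1 put the latter at 0.01, and leaving out replicate 2 put it at -0.34.

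The other guides had wide intervals here. Pola1_sg2 was at -0.66 (interval -2.24 to 0.91) at day 14, where replicate 1 held 285 reads and replicate 2 held 1631. Primpol_sg4 was at -0.23 and 0.07, and Primpol_sg1 at -0.22 and -0.03. Of the 7 guides, 2 had both day 14 libraries below day 0, as had 15.6% of 1793 guides, and 1, Pola1_sg3, had both irradiated libraries below, as had 19.8%. edgeR called 0 of 1793 guides (0%) in each comparison, with 19, 15 and 22 at an unadjusted p under 0.05, and DESeq2 called 0.

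Summed over its guides, Pola1 with non-targeting partners stood at 0.215 and 0.186 of the reads of constructs with 2 non-targeting guides at day 0, 0.123 and 0.170 at day 14, and 0.150 and 0.112 after irradiation, over 97 constructs. The 4 later libraries lay below both day 0 libraries, and Pola1 ranked 4th lowest of 459 genes at day 14 and lowest after irradiation. This sum rests largely on Pola1_sg3, which held 6763 of 11145 Pola1 reads in day 0 replicate 1 and 5287 of 10094 in replicate 2. Pola1_sg2 entered it at 0.035 and 0.046 of the reads of constructs with 2 non-targeting guides at day 0. Its values were 0.0084 and 0.043 at day 14, and 0.040 and 0.019 after irradiation, lowest in the incomplete libraries. Primpol, over 122 constructs, stood at 0.174 and 0.160, then 0.146 and 0.144, then 0.151 and 0.175, and its irradiated and day 0 values overlapped. Its changes were -0.21 (SE 0.18, interval -0.59 to 0.17) at day 14 and -0.03 (SE 0.18, interval -0.41 to 0.35) after irradiation, where leaving out day 0 replicate 1 gave 0.03 and leaving out irradiated replicate 1 gave 0.07. The day 14 change of Pola1 was -0.46, with -0.24 when replicate 1 of day 14 was left out and -0.71 when replicate 2 was. After irradiation the change of Pola1 was -0.61, with -0.84 when irradiated replicate 1 was left out and -0.42 when replicate 2 was. With either left out Pola1 was not the lowest gene, as 1 gene of the replication list lay below it. In the whole table, edgeR called 0 of 459 genes (0%) in each of the 3 comparisons, with 18, 12 and 13 at an unadjusted p under 0.05, and DESeq2 called 0. Both day 14 libraries lay below both day 0 libraries for 12.2% of all genes, among them Pola1 and Primpol, and both irradiated libraries for 19.6%, among them Pola1.

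Some constructs carried 2 guides against the same gene or joined both genes. The 2 constructs with 2 Pola1 guides, both of which hold Pola1_sg3, had 635 and 556 reads at day 0, 115 and 339 at day 14, and 394 and 163 after irradiation. As CPM of the whole library these were 7.52 and 6.43, then 1.86 and 5.54, then 5.51 and 1.88. The low values were those of the incomplete libraries. The 4 constructs with 2 Primpol guides were at 3.70 and 5.96 CPM at day 0, 0.210 and 6.05 at day 14, and 3.67 and 0.959 after irradiation, so outside the incomplete libraries they lay just above and just below the day 0 values. In day 14 replicate 1 only 1 of these 4 had any reads, 13 of them for Primpol_sg2 with Primpol_sg3.

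The 6 constructs that join Pola1 and Primpol had 716 and 772 reads at day 0, 79 and 444 at day 14, and 492 and 439 after irradiation. In day 14 replicate 1, 4 of the 6 had no reads, and Pola1_sg2 with Primpol_sg4 held 43 of the 79. In irradiated replicate 2, 4 of the 6 also had no reads, and the same construct held 269 of the 439. The interaction is how far the log2 change of both losses together departs from the terms of both genes added up. Each term was fitted as a median over the gene's partner genes in each library, and constructs with non-targeting guides did not enter. For Pola1 with Primpol the interaction was -0.55 (SE 0.74, interval -2.31 to 1.22) at day 14 and 0.02 (SE 0.73, interval -1.74 to 1.77) after irradiation. Without the incomplete libraries it was 0.17 in both comparisons. At this depth the joint loss of Pola1 and Primpol could not be told from the sum of both gene terms, nor from a sizeable departure either way.

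Each gene was paired with 458 partner genes. The interactions of Pola1 had quartiles of -0.36 and 0.48 at day 14 and -0.32 and 0.33 after irradiation, and those of Primpol -0.39 and 0.39, then -0.32 and 0.33. Over all 105111 gene pairs the quartiles were -0.41 and 0.43, then -0.33 and 0.37. In all 3 comparisons edgeR called 0 of them (0%), with 452, 372 and 876 at an unadjusted p under 0.05, of which Pola1 had 3, 1 and 1 and Primpol 1, 2 and 6. The median half-width of the interval of a pair was 1.24 for Pola1 and 1.31 for Primpol at day 14.

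The partners named are those of smallest p for each gene. For Pola1 at day 14 these were Rexo4, at 1.19 (SE 0.48), and Mbd4, a DNA glycosylase, at 0.98 (SE 0.40), and without the incomplete libraries they were at 0.54 and 0.49. After irradiation they were Mcm6, a subunit of the replicative helicase, at 1.59 (0.34 without the incomplete libraries), and Actl6a, an actin-related subunit of chromatin remodellers, at 2.93 (0.83). Pola1 with Actl6a had 3234 reads in irradiated replicate 2 and 423 in replicate 1. Between irradiated and day 14 cells they were Fgf10, a growth factor, at -2.19 (-1.22) and Wdr48, a cofactor of deubiquitinases, at -0.90 (-0.45).

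For Primpol the partners at day 14 were Top2b, a topoisomerase, at 1.10 (0.52 without the incomplete libraries) and Cdca5, which stabilises cohesin, at 1.50 (0.27). After irradiation they were Psmd14, a deubiquitinase of the proteasome, at 0.89 (SE 0.32, and 0.84 without the incomplete libraries), and Ino80, a chromatin remodelling ATPase, at 1.70 (0.70). Primpol with Psmd14 had 1061 and 1207 reads at day 0, 572 and 914 at day 14, and 1578 and 1943 after irradiation, so both irradiated libraries held more unscaled reads than the other 4. Between irradiated and day 14 cells the partners were Nudt1, which clears oxidised nucleotides, at 1.50 (0.63), and Pold1, the catalytic subunit of DNA polymerase delta, at -1.73 (-0.52). None of these pairs passed the test.

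Other genes of the same pathways were taken from lists of known members. The other subunits of the alpha-primase complex, Pola2, Prim1 and Prim2, were not analysed here. Of the list for strand start and the replication fork, 28 genes other than Pola1 were measured. With non-targeting partners, 10 of the 28 were lower and 18 higher than at day 0 at day 14, with a median of 0.06, the same as over all 459 genes, and 17 were lower and 11 higher after irradiation, with a median of -0.08 against 0.01 over all genes. TMM scaling split the day 14 changes into 14 lower and 14 higher, and leaving out day 14 replicate 1 gave 15 lower and 13 higher (median -0.03). Of all 459 genes, 168 were lower at day 14 (216 with TMM scaling and 234 without day 14 replicate 1). After irradiation 216 of all 459 genes were lower. The irradiated median of the 28 was -0.02 against -0.01 over all genes when irradiated replicate 2 was left out, and -0.19 against 0.04 when replicate 1 was. None of the 28 was called in either direction in any comparison. At day 14 Pola1, at -0.46, lay below all 28, which ran from -0.27 to 0.38, and after irradiation, at -0.61, it again lay below all of them, which ran from -0.49 to 0.17. When day 14 replicate 1 was left out, 1 of the 28 lay below Pola1 at day 14, and 1 did so after irradiation when either irradiated replicate was left out.

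The genes of smallest p in this list at day 14 were Pold1, at 0.38 (SE 0.22), Wdhd1, which links the helicase to polymerase alpha, at 0.32 (SE 0.19), and Gins4, of the helicase complex, at 0.34 (SE 0.22). When day 14 replicate 1 was left out, these values became 0.10, 0.06 and -0.10. After irradiation they were the helicase subunits Mcm3, at -0.36 (SE 0.17), Gins2, at -0.49 (SE 0.24), and Mcm6, at -0.49 (SE 0.25), or -0.29, -0.14 and -0.65 without irradiated replicate 2. Between irradiated and day 14 cells, 24 of the 28 and 295 of all 459 genes were lower, with a median of -0.14 against -0.08 over all genes. Without the incomplete libraries 15 of the 28 and 251 of all 459 genes were lower. Mcm6 (-0.58), Timeless, a fork protection factor (-0.34), and Pold3, a subunit of polymerase delta (-0.34), had the smallest p there, and with both incomplete libraries left out they were at -0.37, -0.14 and -0.05. Pola1 was at -0.16 (SE 0.21), and its direction depended on the libraries: it was at 0.09 when day 14 replicate 2 was left out and at 0.03 when irradiated replicate 2 was, and at -0.37 and -0.38 when the other replicate of each was. Of the 109 guides of the 28 other genes, 4 lay under -0.3 over all partners in each comparison with day 0. Of all 1849 guides, 29 (1.57%) lay under it at day 14 and 27 (1.46%) after irradiation. This cut was chosen after the values were seen.

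**Figure D4:**
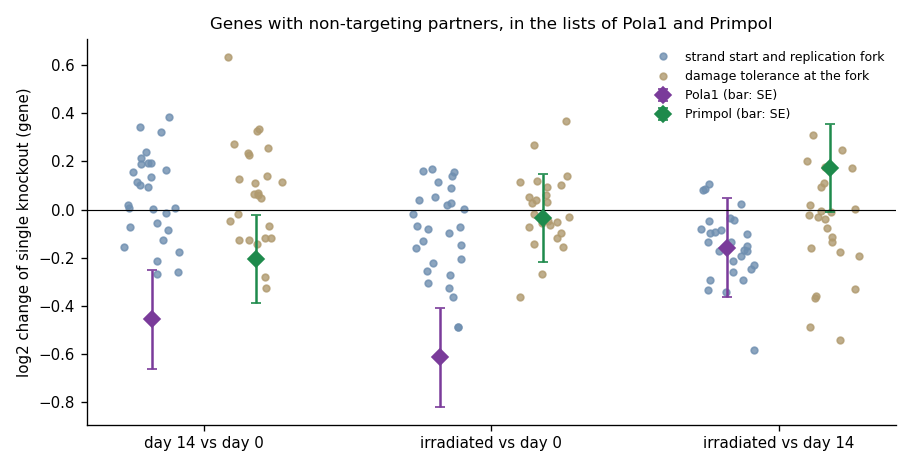
Log2 change of genes with non-targeting partners in 3 comparisons, for the list of strand start and replication fork genes (blue-grey) and the list of damage tolerance genes (brown), 1 point per gene. Diamonds with SE bars are Pola1 (purple) and Primpol (green); Pola1 lies below all 28 other genes of its list in both comparisons with day 0 (with 1 gene below it when an incomplete library of that comparison is left out), and Primpol lies within the range of its list in each comparison.

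Primpol was set beside 25 other genes of damage tolerance at the fork, which covers translesion polymerases, the enzymes that ubiquitinate the sliding clamp and fork remodellers. At day 14, 10 were lower and 15 higher (median 0.06), and after irradiation 13 were lower and 12 higher (median -0.02, against 0.01 over all genes). Without day 14 replicate 1 the day 14 split was 15 lower and 10 higher, and without irradiated replicate 2 the irradiated split was 17 lower and 8 higher. Of all 459 genes, 168 were lower at day 14 (234 without day 14 replicate 1). After irradiation 216 of them were lower (250 without irradiated replicate 2). None of the 25 was called. Primpol, at -0.21 and -0.03, lay within the range of the 25, which was -0.32 to 0.63 at day 14 and -0.36 to 0.37 after irradiation, but below all 25 at day 14 when day 14 replicate 1 was left out (-0.22).

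The genes of smallest p at day 14 were Polm, an end-joining polymerase, at 0.63 (SE 0.29), Shprh, a ubiquitin ligase of the clamp, at 0.33 (SE 0.19), and Mad2l2, a subunit of polymerase zeta and of shieldin, at -0.32 (SE 0.18). When day 14 replicate 1 was left out, these values became -0.04, 0.01 and -0.15. After irradiation they were Mad2l2 at -0.36 (SE 0.18), Poli, a translesion polymerase, at 0.37 (SE 0.22), and Rnf8, a ubiquitin ligase, at -0.27 (SE 0.18), or -0.23, -0.01 and -0.15 without irradiated replicate 2. Between irradiated and day 14 cells, 16 were lower and 9 higher (11 and 14 with TMM scaling). Of all 459 genes, 295 were lower (243 with TMM scaling). In the list, Shprh (-0.49), Ube2b, a ubiquitin-conjugating enzyme (0.31), and Polm (-0.54) had the smallest p. When day 14 replicate 1 was left out, these became -0.16, 0.23 and 0.13, so Polm turned. The split of the list was then 12 lower and 13 higher, with 225 of all 459 genes lower. Primpol was at 0.17 (SE 0.18) between irradiated and day 14 cells, and at 0.06 when irradiated replicate 2 was left out. Of the 98 guides of the 25 other genes, 2 lay under -0.3 at day 14 and 1 after irradiation, over all partners. The shares over all 1849 guides were 1.57% and 1.46%.

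Across the 6 libraries, genes whose level with non-targeting partners closely tracked that of Pola1 included Mad2l2, with Pearson's r = 0.987, and Hus1, of the 9-1-1 checkpoint clamp, with r = 0.957. Their changes were -0.32 and -0.26 at day 14 and -0.36 and -0.53 after irradiation. For Primpol the closest were Dntt, the terminal transferase of lymphocytes, with r = 0.972, Fan1, a crosslink repair nuclease, with r = 0.920 and Pwwp3a with r = 0.918, and their changes were -0.20, -0.14 and -0.18, then 0.03, -0.04 and -0.09. These are among the highest of 458 values each over 6 points that share the libraries, their scaling and their incompleteness.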

How the data were processed

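The authors deposited raw read counts for each guide pair, per the file headers; pairs not listed in a library were set to 0. HISAT2 2.1.0 and hg38 appear in the submitters' processing notes without their step, and the sources used here do not give how reads were assigned to guides. In 0 guide pairs did a library's own table differ from the combined one, and 2 columns that match no sample were not used. Counts were summed per guide and position (mean of at least 2000), per guide or gene with non-targeting partners (at least 20), and per gene pair over both orders (at least 20). They were fitted with edgeR 4.0.16 (R 4.3.3), quasi-likelihood, two-sided, all 6 libraries in 1 fit, Benjamini-Hochberg threshold 0.05. Guides were scaled by TMM within position, sums with non-targeting partners by constructs with 2 non-targeting guides. For gene pairs, an additive fit of medians on log2 CPM (prior count 2, 25 iterations) entered as an offset. Alternatives were DESeq2 1.42.0, limma 3.58.1, other scalings and filters, the replicate block and each library left out. The tests were tried on simulated counts. Reads are PCR products without molecular identifiers, so intervals cover the spread between libraries only. Named were all guides of both genes, their joint and same-gene constructs, per gene and comparison the 2 partners of smallest p, per list up to 3 genes of smallest p, and per gene the 3 genes of highest Pearson's r; a gene that this rule names is not reported here. The members and lists were chosen with earlier results of these data known. Fen1_sg3 and the guide counts under -0.3 were chosen after their values were seen.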

Additional observations from a re-analysis of the deposited data

How the results depend on the processing

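The edgeR counts of 0 calls were not stable for guides over all partners. Counts are given for day 14, then for irradiated cells, each set against day 0, then for irradiated against day 14 cells. DESeq2 called 24, 27 and 22 guides, scaling by non-targeting guides 0, 2 and 2, no count filter 0, 0 and 1, and the replicate block 0, 1 and 1. Leaving out 1 library gave 0 to 310, 0 to 312 and 0 to 10 calls among 1849 guides. The highest of the first 2 came without day 0 replicate 2, where Pola1_sg3 and Primpol_sg3 were called. Day 0 then rests on replicate 1 alone, in which 264 of 927 guides of position 2 had a low level. Nothing is read from the calls of these 2 guides in that fit. Without day 0 replicate 1, irradiated against day 0 called 4 guides, 1 of them Pola1_sg3. For guides with non-targeting partners, leaving out 1 library gave 0 to 20 calls at day 14, and leaving out both incomplete libraries gave 2, 9 and 1, with Pola1_sg3 among the 9. For genes the same gave 0 to 21 at day 14, and 1, 3 and 0. The highest day 14 counts, 20 guides and 21 genes, came without day 14 replicate 2, where day 14 rests on an incomplete library. For gene pairs, limma and the replicate block each gave 0, 1 and 1, leaving out 1 library 0, 0 to 1 and 0 to 1, and leaving out both incomplete libraries 168, 1274 and 216, a fit in which each later group is 1 library assumed to vary like day 0.

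Deviations from the group means of same-numbered day 14 and irradiated libraries correlated at -0.54 and -0.62 (positions 1 and 2). The incomplete libraries carry opposite replicate numbers in these groups, so these values cannot show whether the numbers pair the samples. The same correlations were 0.18 and -0.10 for day 0 with day 14 libraries, and -0.08 and 0.15 for day 0 with irradiated libraries. With the replicate numbers crossed, an alternative chosen after seeing the data, the block gave 0, 0 and 0 guide calls and 0, 1 and 1 pair calls. Over the settings run, Pola1_sg3 over all partners ran from -0.48 to 0.69 at day 14 and from -0.67 to 0.26 after irradiation, positive only as the median over partners (0.69 and 0.26), and Primpol_sg3 from -0.67 to -0.39 and from -0.57 to -0.40. Of the values of single guides under another setting, 472 of 525 moved by less than the replicate SD, as did 257 of 288 for genes and 139 of 165 for pairs.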
